A study of Mus musculus with 7 samples.

Results

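The CCAAT/enhancer-binding protein (C/EBP) genes Cebpa, Cebpb, Cebpd, Cebpe and Cebpg, together with Gfi1 and Spi1, which encode transcription factors of granulocyte formation, were examined in T-cells of ORP4L knock-in (ORP4L KI) and wild-type (WT) mice. The 7 genes were chosen by name from the 25033 genes listed in each library, with the knowledge that the read count of Cebpe was higher in every ORP4L KI library. The contrast of ORP4L KI with WT therefore took part in the choice, and its values for the 7 genes are given as a description, without p-values. All 7 genes were among the 13462 genes that passed the filter on low counts.

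RNA was sequenced from primary T-cells of 4 ORP4L KI and 3 WT mice of strain C57BL/6J, 1 library per mouse, all labelled as 15 months old. ORP4L binds oxysterols and is encoded in the mouse by Osbp2. The ORP4L KI mice carried human ORP4L with a 3xFlag tag, followed by IRES-EGFP, in the Rosa26 locus behind a loxP-flanked stop, and Lck-Cre, a recombinase driven by a T-cell promoter, removed the stop. They were sampled when moribund and the WT mice were littermates, and whether the WT mice carried Cre was not given in the sources used here. T-cells came from blood mononuclear cells or from spleen and were enriched with a kit for naive CD4+ T-cells, and which source each library had was likewise not given.

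C/EBP proteins bind DNA as dimers through a basic region and a leucine zipper. In the bone marrow, C/EBP alpha and PU.1, the product of Spi1, act early in myeloid commitment, Gfi1 favours the granulocyte over the monocyte fate, and C/EBP epsilon is required for the late steps of granulocyte maturation in which secondary granule proteins are made. C/EBP beta and C/EBP delta act in inducible and emergency myelopoiesis and in inflammation, while C/EBP gamma lacks a strong activation domain and pairs with other bZIP proteins.

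The C/EBP genes are paralogs. The stretch of the Cebpe coding sequence that Cebpa, Cebpb and Cebpg matched best is shown, because reads from it bear on how reads are assigned between these 4 genes. It spans 20 codons (60 bases) and was found by the summed number of residues that matched Cebpe. The stretch lies in the basic region, in a coding exon of each gene. The sequences are those of GENCODE M21 on GRCm38, 5′ to 3′ on the coding strand, and capitals mark bases that are the same in all 4.
Cebpa: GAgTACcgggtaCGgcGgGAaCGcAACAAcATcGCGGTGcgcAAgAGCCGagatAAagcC
Cebpb: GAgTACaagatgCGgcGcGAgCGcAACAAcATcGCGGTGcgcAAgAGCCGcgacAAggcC
Cebpe: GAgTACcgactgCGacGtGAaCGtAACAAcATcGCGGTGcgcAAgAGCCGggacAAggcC
Cebpg: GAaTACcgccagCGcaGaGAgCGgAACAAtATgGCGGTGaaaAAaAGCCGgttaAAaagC
The stretches lie at chr7:35120271-35120330 (Cebpa, plus strand), chr2:167689691-167689750 (Cebpb, plus strand), chr14:54710710-54710769 (Cebpe, minus strand) and chr7:35050588-35050647 (Cebpg, minus strand). Of the 60 bases, 35 were the same in all 4 genes, and 14 of the 20 codons gave the same residue. Cebpa and Cebpb each shared 51 bases with Cebpe, and Cebpg shared 40. The longest run of identical bases between the transcripts of any pair of the 4 genes was 29 bases, so a longer read that matches without error fits only 1 of these 4. How the mapping treated reads that match several genes was not given in the sources used here.

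In the RefSeq annotation of GRCm38.p6, Cebpa (NM_007678, chr7:35119293-35121928), Cebpb (NM_009883, chr2:167688915-167690432) and Cebpd (NM_007679, chr16:15887286-15889545) lie on the plus strand. Cebpe (NM_207131, chr14:54710363-54712174) and Cebpg (NM_009884, chr7:35046422-35056566) lie on the minus strand. Cebpg and Cebpa are neighbours, 62726 bases apart, on opposite strands. Gfi1 (NM_010278) lies at chr5:107716655-107725805 on the minus strand and Spi1 (NM_011355) at chr2:91082374-91115759 on the plus strand. In GENCODE M21 the transcripts with the longest coding sequence have 1 exon for Cebpa, Cebpb and Cebpd, 2 for Cebpe and Cebpg, 7 for Gfi1 and 5 for Spi1.

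The libraries held between 12918187 and 19665679 counts, with the 3 WT libraries below the 4 ORP4L KI libraries, and each detected between 16020 and 16406 genes. ORP4L KI replicate 1 stood apart, with 14.27% of its counts in 10 genes against 5.23 to 7.96% in the other libraries. In counts per 1000000 counts of the library (CPM), scaled by trimmed mean of M-values, Osbp2 was at 0 to 0.0702 in WT and at 8.90 to 40.6 in ORP4L KI, in the direction of the labels. Xist, which is transcribed from the inactive X chromosome, was at 373 to 651 CPM in WT replicate 1 and ORP4L KI replicates 1 and 2 and at 15.7 to 22.3 in the other libraries, so that both patterns occurred in both groups, and the labels do not give the sex of the mice. The part of sex in the results was not tested. T-cell markers were present in every library, with Cd3e at 66.8 to 183 RPKM, the reads per kilobase of transcript and 1000000 reads. None of 13 T-cell markers passed the thresholds given below, none had an unadjusted p under 0.05 in edgeR's quasi-likelihood test, and DESeq2's Wald test called none. Their sum was 0.254 to 0.388% of counts in WT and 0.141 to 0.528% in ORP4L KI, lowest in ORP4L KI replicate 1 and highest in ORP4L KI replicate 2.

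Cebpe, the C/EBP gene of late granulocyte maturation, was higher in every ORP4L KI library than in any WT library. It was at 6.52, 2.77 and 1.05 CPM in WT replicates 1 to 3 and at 192, 17, 36.0 and 56.5 CPM in ORP4L KI replicates 1 to 4. These values rested on 105, 44 and 15 reads in WT and on 3153, 311, 626 and 909 reads in ORP4L KI. The groups did not overlap, but the levels differed 11.3-fold within ORP4L KI and 6.19-fold within WT. The means were 3.45 ± 2.80 CPM in WT (SD, n = 3) and 75.4 ± 79.4 CPM in ORP4L KI (SD, n = 4), so the spread between ORP4L KI mice was as large as their mean. The fitted log2 fold change was 4.44 ± 0.94 (SE), which is 21.7-fold. It was 3.39 without ORP4L KI replicate 1, the library with the highest level, and 5.29 without WT replicate 1, the WT library with the highest level. The library of ORP4L KI replicate 2, with the lowest level of its group, was still 4.94 times the WT mean, and that of replicate 1 was 55.7 times it.

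Of the 7 genes, Cebpe alone was called higher at the thresholds used (a log2 fold change beyond 1 in either direction with an unadjusted p under 0.01), against 2.38% of all genes tested, and none was called lower, against 2.3% of all genes. No gene of the 7 had an adjusted p under 0.05, which 0.0223% of all genes had. In CPM, the groups did not overlap, with ORP4L KI higher, for 1 of the 7 genes (6.43% of all genes), and with ORP4L KI lower for none (7.38% of all genes). Cebpe was chosen for this pattern, so nothing is read from these counts. The median log2 fold change of the 7 genes was 0.38, against 0.01 over all genes tested, with 5 values above 0 and 2 below. In these bulk samples, more cells of a type and more RNA of a gene per cell cannot be told apart.

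**Figure D1:**
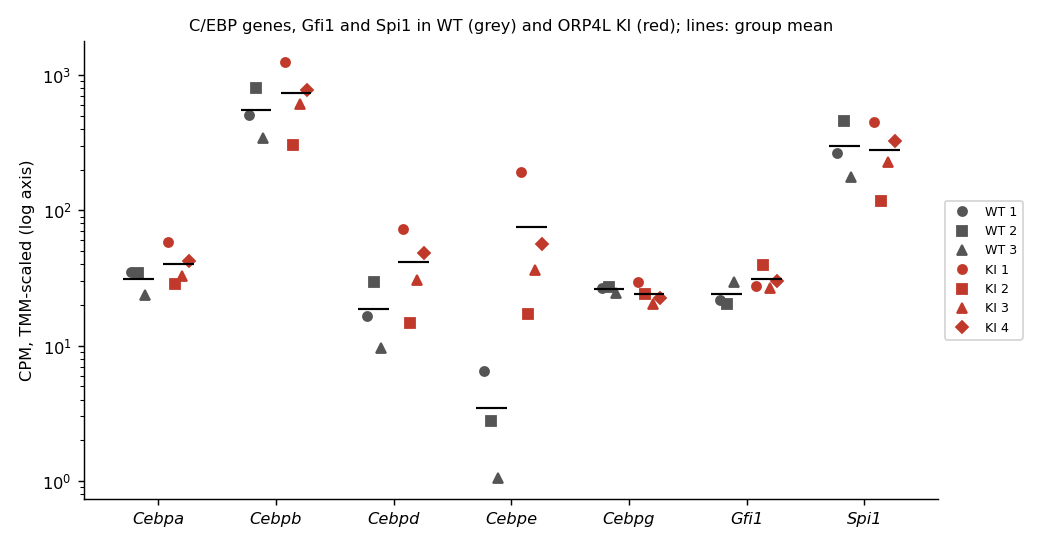
Level of each of the 7 genes in CPM (log axis) in the 3 WT (grey) and 4 ORP4L KI (red) libraries, each point 1 mouse and each line a group mean. Cebpe separates the groups, from at most 6.52 CPM in WT to at least 17 CPM in ORP4L KI, while the points of the other 6 genes overlap.

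Cebpd had the next largest difference. Its level was 16.6, 29.6 and 9.62 CPM in WT and 72.6, 14.7, 30.7 and 48.6 CPM in ORP4L KI. In 3 of the 4 ORP4L KI libraries it was above every WT library, and in ORP4L KI replicate 2 it lay among the WT values. The log2 fold change was 1.16 ± 0.54 (SE), between 0.75 without ORP4L KI replicate 1 and 1.66 without WT replicate 2. Not called with all libraries, Cebpd was called higher without ORP4L KI replicate 2 (1.44).

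Cebpb, the C/EBP gene with the highest RPKM, was at 511, 796 and 340 CPM in WT and at 1245, 302, 612 and 775 CPM in ORP4L KI. The highest and the lowest value of the 7 libraries were both in ORP4L KI, in replicates 1 and 2. The means were 549 ± 231 CPM (SD, n = 3) and 733 ± 393 CPM (SD, n = 4), and the log2 fold change of 0.42 ± 0.46 (SE) fell to 0.04 without ORP4L KI replicate 1 and was 0.79 without WT replicate 2.

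Cebpa, the C/EBP gene of early myeloid commitment, was at 35.0, 34.2 and 23.7 CPM in WT and at 58.3, 28.5, 32.6 and 42.5 CPM in ORP4L KI. The levels of 2 ORP4L KI libraries were above all WT libraries and those of the other 2 lay between WT values. Its log2 fold change was 0.38 ± 0.28 (SE).

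Cebpg was the steadiest of the 7 genes, with levels of 26.9, 27.1 and 24.4 CPM in WT and 29.8, 24.1, 20.3 and 22.6 CPM in ORP4L KI. The highest level was 1.47 times the lowest over all 7 libraries, where the same ratio was 182 for Cebpe. The log2 fold change of Cebpg was -0.11 ± 0.20 (SE), and its groups overlapped in CPM. The overlap depended on the scaling. In the deposited RPKM, which are not scaled by trimmed mean of M-values, Cebpg was at 5.72 to 6.18 in WT and at 4.29 to 5.58 in ORP4L KI.

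Spi1, which encodes PU.1, was at 266, 456 and 175 CPM in WT and at 447, 118, 227 and 328 CPM in ORP4L KI. WT replicate 2 was highest, ORP4L KI replicate 2 was lowest, and the means were 299 ± 144 CPM (SD, n = 3) and 280 ± 141 CPM (SD, n = 4). The log2 fold change was -0.09 ± 0.45 (SE), and its sign was not stable: it was -0.41 without ORP4L KI replicate 1 and 0.34 without WT replicate 2.

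Gfi1, a repressor that acts in granulocyte precursors and also in T-cells, was at 21.9, 20.4 and 29.6 CPM in WT and at 27.5, 39.4, 26.8 and 30.0 CPM in ORP4L KI. The log2 fold change was 0.37 ± 0.22 (SE), with ORP4L KI replicates 2 and 4 above all WT libraries. ORP4L KI replicate 2, where Gfi1 was highest, was the ORP4L KI library in which Cebpa, Cebpb, Cebpd, Cebpe and Spi1 were lowest and in which the summed T-cell markers were highest.

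The ORP4L KI libraries fell into 1 order for 5 of the 7 genes. Cebpa, Cebpb, Cebpd, Cebpe and Spi1 were each highest in replicate 1, followed by replicates 4, 3 and 2. The sum of the 9 mature neutrophil markers had this order too, at 6.6, 1.83, 1.23 and 0.443% of counts. Among these markers G0s2 departed from it, with 252 CPM in replicate 4 and 192 CPM in replicate 1. The order was not particular to neutrophil markers. It was also that of the summed monocyte and macrophage, basophil and mast cell, and eosinophil markers, and of the summed genes of both granule lists. In WT the order split. Cebpb, Cebpd, Cebpg and Spi1 were highest in replicate 2, then 1, then 3. The sum of the mature neutrophil markers had this order (0.484, 0.273 and 0.206% of counts), as did the sums of erythroid and of dendritic cell markers. Of the mature neutrophil markers, however, Cxcr2, Il1r2 and Clec4d were lowest in replicate 1, and Ly6g was highest in it. Cebpa and Cebpe were highest in replicate 1, then 2, then 3, as was the sum of the primary granule genes (0.0283, 0.0058 and 0.00391% of counts). This order was not particular to them. The sums of secondary and tertiary granule genes and of eosinophil, B-cell, natural killer cell and cell division markers had it too.

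Markers of other cells were detected in all libraries, and some moved with the groups. Over all genes tested, 2.38% were called higher and 2.3% lower. Of the 9 mature neutrophil markers, 4 were called higher (S100a8, S100a9, Ly6g and Retnlg) and none lower. The 5 not called had log2 fold changes from -0.13 (G0s2) to 1.89 (Fpr1). Among them were Cxcr2 (0.40), Il1r2 (0.31) and Clec4d (0.10). The sum of the 9 markers was 0.206 to 0.484% of counts in WT and 0.443 to 6.6% in ORP4L KI. In ORP4L KI replicate 1, S100a8 and S100a9 held 477360 and 721737 of the 19665679 counts. Of 4 eosinophil markers, Prg2 and Epx were called higher, while Siglecf (log2 fold change 0.64) and Ccr3 (-0.01) were not called. Their sum was 0.00142 to 0.00438% in WT and 0.00736 to 0.0704% in ORP4L KI. In ORP4L KI replicate 1, Prg2 had 11974 counts, Epx 1633, Siglecf 176 and Ccr3 63. Of 10 monocyte and macrophage markers, 1 was called higher and 2 lower (0.141 to 0.223% and 0.119 to 0.257%). Of 7 dendritic cell markers, 6 were called lower (0.0537 to 0.0747% and 0.0119 to 0.0262%), and of 6 natural killer cell markers 4 were called lower (0.0436 to 0.0568% and 0.0105 to 0.0311%). Among 6 of 7 basophil and mast cell markers tested, 1 was called higher (0.0321 to 0.0765% and 0.0251 to 0.0844%), and Fcer1a, the marker not tested, was at 0 counts in WT replicate 2, the 1 marker at 0 in any library. For 8 B-cell markers (0.0374 to 0.0627% and 0.0218 to 0.0598%) no gene passed the thresholds or had an unadjusted p under 0.05 in edgeR's quasi-likelihood test, and DESeq2's Wald test called none. For 9 erythroid markers (1.09 to 1.86% and 0.124 to 0.856%) edgeR called none, 5 had an unadjusted p under 0.05, and DESeq2's Wald test called 5. Of 10 cell division genes, Mki67 and Top2a were called higher (0.0217 to 0.0394% and 0.0469 to 0.0971%). The part of any of these cells in the levels of the 7 genes was not tested.

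Levels were compared between genes as RPKM, which takes the length of each gene's longest transcript into account. In WT, Cebpb was highest at 378 ± 139 RPKM (SD, n = 3), followed by Spi1 at 214 ± 91.5, Cebpa at 12.4 ± 2.29, Gfi1 at 9.64 ± 2.37, Cebpd at 8.57 ± 4.21, Cebpg at 5.89 ± 0.258 and Cebpe at 2.95 ± 2.46 RPKM. Spi1 and Cebpa did not overlap in WT, nor did Cebpg and Cebpe, and the other neighbours in this order did. In ORP4L KI, Cebpe was the third highest, at 53.8 ± 51.5 RPKM (SD, n = 4), after Cebpb at 443 ± 193 and Spi1 at 177 ± 71.9 RPKM. Below it stood Cebpd at 16.8 ± 8.44, Cebpa at 14.3 ± 3.04, Gfi1 at 11.3 ± 3.32 and Cebpg at 4.89 ± 0.634 RPKM. In ORP4L KI all neighbours in the order overlapped except Gfi1 and Cebpg.

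Cebpe, last of the 5 C/EBP genes in WT, was second to Cebpb in ORP4L KI. Its share of their summed RPKM was 1.43, 0.40 and 0.35% in WT and 15.0, 5.85, 6.28 and 7.63% in ORP4L KI, with means of 0.727 ± 0.61% (SD, n = 3) and 8.68 ± 4.26% (SD, n = 4). Cebpb made up 91.4, 93.9 and 92.1% in WT and 79.2, 84.6, 87.2 and 85.3% in ORP4L KI, so that it held most of the sum in every library. Cebpd had 2, 2.34 and 1.75% in WT and 3.10, 2.76, 2.93 and 3.59% in ORP4L KI. The shares of Cebpe, Cebpb and Cebpd did not overlap between the groups, while those of Cebpa (3.21 ± 0.768% and 3.03 ± 1.08%) and Cebpg (1.57 ± 0.554% and 1.13 ± 0.711%) did. Cebpe was chosen for being higher in every ORP4L KI library, so nothing is read from the separation of its share. Shares of 1 sum are not independent, and a higher share of Cebpe lowers the others. In RPKM itself Cebpb overlapped, at 246 to 524 in WT and 216 to 684 in ORP4L KI.

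**Figure D2:**
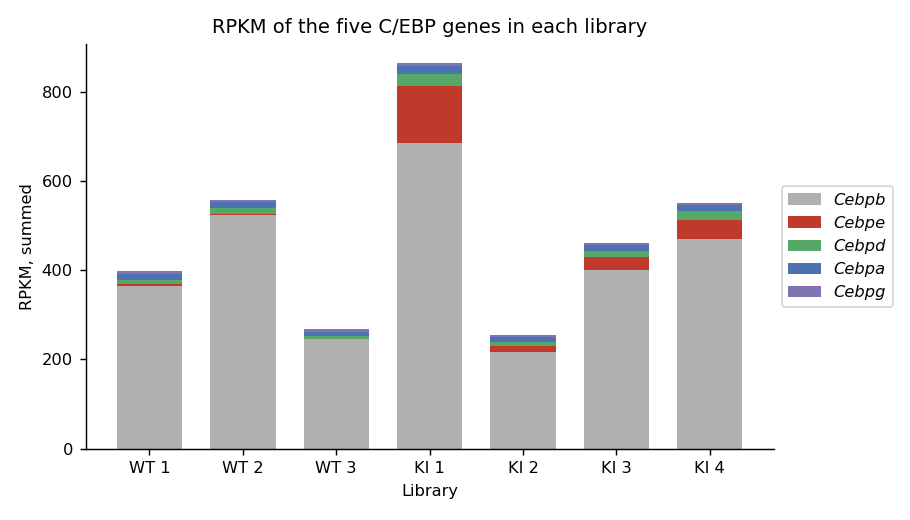
Stacked bars of the RPKM of the 5 C/EBP genes in each of the 7 libraries (1 bar per mouse, without error bars), each colour 1 gene. Of the height of its bar, Cebpb makes up 79.2 to 93.9% in every library, and Cebpe at most 1.43% in WT and at least 5.85% in ORP4L KI.

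Ratios between genes of the same library do not depend on how libraries are scaled. The following were chosen after their values were seen. Spi1 was at 24.9, 24.0 and 28.2 times the RPKM of Cebpd in WT and at 9.57, 12.5, 11.5 and 10.5 times in ORP4L KI. The ratio of these genes thus varied little within a group, although each gene alone varied several-fold between mice and overlapped between the groups. Spi1 was at 0.544, 0.598 and 0.537 times the RPKM of Cebpb in WT and at 0.375, 0.409, 0.388 and 0.442 times in ORP4L KI. Cebpd was at 0.0219, 0.0249 and 0.0190 times the RPKM of Cebpb in WT and at 0.0392, 0.0327, 0.0337 and 0.0421 times in ORP4L KI. Relative to Spi1, both Cebpb and Cebpd were therefore higher in every ORP4L KI library than in any WT library, including ORP4L KI replicate 2, where both were low in CPM. Cebpe was at 0.396, 0.172 and 0.0948 times the RPKM of Cebpa in WT and at 7.02, 1.27, 2.35 and 2.83 times in ORP4L KI, so that Cebpe was below Cebpa in every WT library and above it in every ORP4L KI library.

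**Figure D3:**
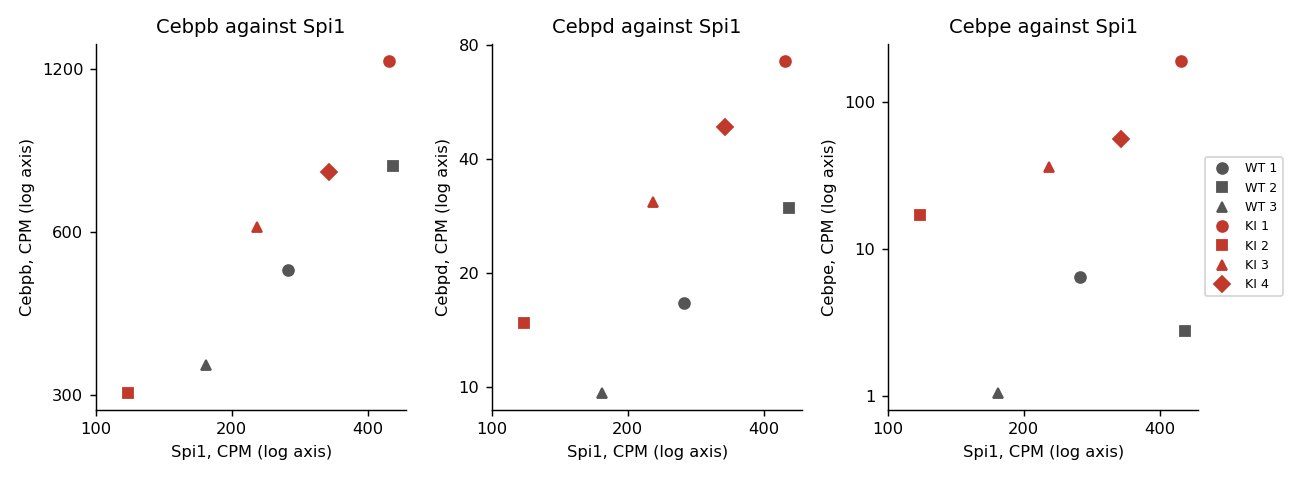
CPM of Cebpb, Cebpd and Cebpe against CPM of Spi1 (log axes), each point 1 library. In all 3 plots the ratio to Spi1 is higher in each ORP4L KI library than in any WT library, with the widest gap for Cebpe, where ORP4L KI replicate 2 has the lowest Spi1 (118 CPM) and 17 CPM of Cebpe, above all WT libraries.

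Genes whose pattern was most like that of Cebpe were found by the SD of the log2 ratio of their CPM to its CPM over the 7 libraries, among 11048 genes with a mean count of at least 50. The 5 nearest were Prtn3 (SD 0.24), the gene of proteinase 3 of primary granules, Prom1 (0.29), the gene of the surface glycoprotein CD133, Orm1 (0.31), an acute-phase glycoprotein gene, Ctsg (0.32), the gene of cathepsin G, and Prg2 (0.35), the gene of eosinophil major basic protein. The median SD over all genes was 2.63. Prtn3 was at 39.1, 13 and 5.34 CPM in WT and 1399, 119, 208 and 294 CPM in ORP4L KI, between 4.7 and 7.29 times Cebpe in every library. None of the other 6 transcription factor genes was this near, with Cebpd at an SD of 1.86 (place 288), Cebpb at 2.24 (1012), Cebpa at 2.28 (1208), Spi1 at 2.49 (3302), Gfi1 at 2.54 (4046) and Cebpg at 2.61 (5319). These values describe the same 7 libraries, in which the groups differ widely in Cebpe.

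Spi1 had other neighbours. The nearest was Marcksl1 (SD 0.08), a MARCKS-like gene, which stayed between 0.948 and 1.08 times Spi1 in CPM. The next were Ifitm3 (0.10), an interferon-induced membrane protein gene, Cfp (0.14), the gene of the complement regulator properdin, Tgm1 (0.15), a transglutaminase gene, and Ctsl (0.17), the gene of cathepsin L. The median SD over all genes was 0.79. Cebpb stood at place 31 with an SD of 0.27, the nearest to Spi1 of the other 6 genes, and Cebpe stood at place 11019 with an SD of 2.49.

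**Figure D4:**
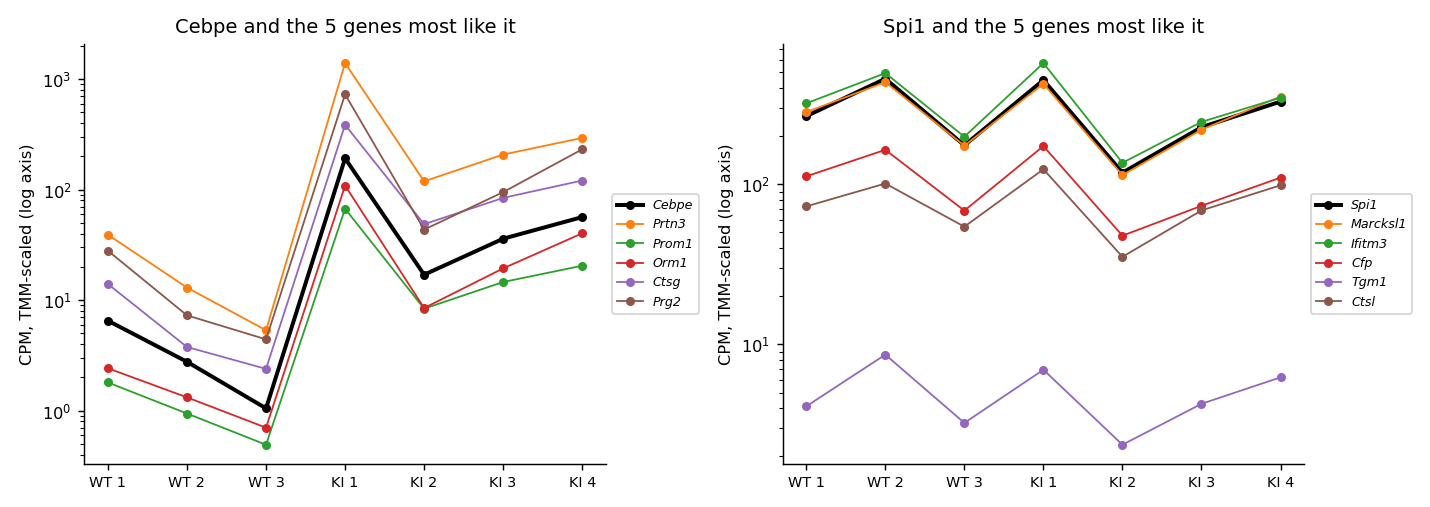
CPM (log axis) of Cebpe (left) and Spi1 (right), in black, and of the 5 genes most like each, by library, with lines joining the values of 1 gene. Prtn3, Prom1, Orm1, Ctsg and Prg2 follow Cebpe from WT to ORP4L KI, while Marcksl1, Ifitm3, Cfp, Tgm1 and Ctsl follow Spi1 with high values in WT replicate 2 and ORP4L KI replicate 1 and the lowest in ORP4L KI replicate 2.

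Genes of the primary granule list, which are active in promyelocytes, were called higher in 7 of 7 cases, with a median log2 fold change of 4.50. A place in the list does not mean that the product is a granule protein. Of all genes tested, 2.38% were called higher and 2.3% lower, and 6.43% had every ORP4L KI library above every WT library. This list and those below were chosen with earlier results of these data known, so their counts are no independent support. Mpo, the gene of myeloperoxidase, was at 129, 24.8 and 17.6 CPM in WT and at 2630, 378, 579 and 905 CPM in ORP4L KI, with a log2 fold change of 4.29 ± 0.95 (SE). Elane, the gene of neutrophil elastase, was at 49.9, 8.43 and 4.85 CPM in WT and at 1242, 108, 202 and 356 CPM in ORP4L KI (4.50 ± 1.11). For both genes, as for Cebpe, ORP4L KI replicate 1 was highest and WT replicate 1 was the highest of WT, and the groups did not overlap. The log2 fold changes of Prtn3 (4.72 ± 1.06), Ctsg (4.57 ± 0.90), Ms4a3 (5.34 ± 1.11) and Fcnb (4.13 ± 0.88), the gene of ficolin B, were of like size. No gene of the primary granule list passed an adjusted p of 0.05 in edgeR's quasi-likelihood test with Benjamini-Hochberg adjustment. The 6 named had adjusted p from 0.0686 (Ctsg) to 0.11 (Elane). Single libraries moved these values: without ORP4L KI replicate 1 the log2 fold changes of the 6 named genes were 3.40 (Elane) to 3.97 (Ms4a3), and without WT replicate 1 they were 5.40 (Fcnb) to 6.32 (Ms4a3). Elane was not called without WT replicate 2 (4.12) or without WT replicate 3 (4.03). Prss57, the remaining gene of the list, was not called in these fits either, which left 5 of 7 called.

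Secondary and tertiary granule genes, several of which are known targets of C/EBP epsilon, were called higher in 10 of 12 cases and lower in none, with a median log2 fold change of 3.34. Ngp, the gene of neutrophilic granule protein, was at 1330, 366 and 237 CPM in WT and at 32526, 2985, 8908 and 16046 CPM in ORP4L KI (4.55 ± 0.95). Ltf, the lactoferrin gene, was at 749, 229 and 148 CPM in WT and at 15237, 1782, 5384 and 9583 CPM in ORP4L KI (4.41 ± 0.86). Neither gene overlapped between the groups, and their libraries stood in the order of Cebpe. Camp, the cathelicidin gene, had a log2 fold change of 4.57 ± 1.08, Lcn2, the lipocalin 2 gene, 3.96 ± 0.84, and Cd177, a neutrophil surface protein gene, 3.65 ± 0.66. Chil3, a chitinase-like gene, differed less, at 404, 609 and 362 CPM in WT and 5439, 722, 1029 and 1594 CPM in ORP4L KI (2.26 ± 0.67), and its call rested on single libraries, since it was lost without WT replicate 1 (2.18), 2 (2.52) or 3 (2.12) or ORP4L KI replicate 4 (2.39). Without ORP4L KI replicate 1 the log2 fold change of Chil3 was 1.28, that of Ngp 3.86, Camp 3.76, Lcn2 3.25 and Cd177 3.07. Without WT replicate 1 it was 5.65 for Ngp, 5.41 for Ltf and 5.85 for Camp. Lrg1 (1.40) and Hp (1.76) were not called by edgeR, while DESeq2's Wald test called 11 of the 12, Hp among them, and edgeR called Hp without ORP4L KI replicate 2 and Lrg1 without WT replicate 2. None of the list passed an adjusted p of 0.05 in edgeR's quasi-likelihood test with Benjamini-Hochberg adjustment, and the 6 named ranged from 0.0603 (Cd177) to 0.162 (Chil3). With a replicate removed, 8 to 11 of the 12 genes were called. Mmp9 was called with all libraries but not without WT replicate 1, 2 or 3 or ORP4L KI replicate 1 or 4. Together the 12 genes made up 0.16 to 0.40% of counts in WT and 6.27, 0.832, 2.13 and 3.51% in ORP4L KI replicates 1 to 4.

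**Figure D5:**
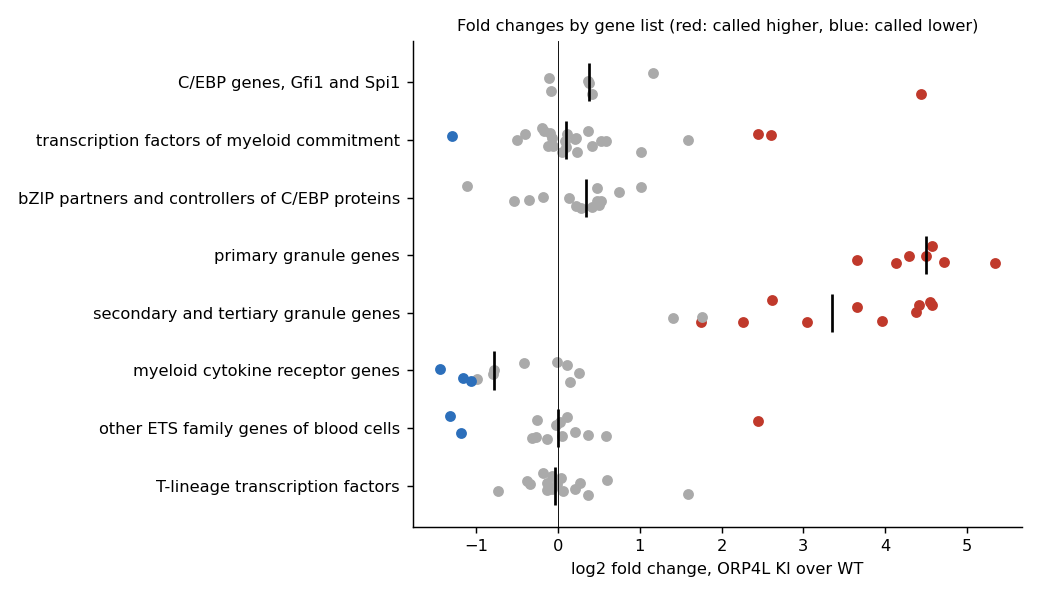
Log2 fold change (ORP4L KI over WT) of the 7 transcription factor genes (top line) and of every gene in the 7 lists, each point a gene, red if called higher, blue if called lower and grey if not called, and each black bar a median. Both granule lists lie at positive values with medians of 4.50 and 3.34, while that of the receptor genes lies at -0.78 and those of the other lists lie between -0.04 and 0.35.

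Of 24 other transcription factors of myeloid commitment, Klf5 and Erg were called higher and Irf8 lower, and the median log2 fold change was 0.10. Irf8, which directs precursors to monocytes and dendritic cells, was at 375, 428 and 252 CPM in WT and at 108, 129, 198 and 137 CPM in ORP4L KI, without overlap (-1.30 ± 0.27). Erg, an ETS factor of blood stem and precursor cells, was at 4.66, 2.33 and 1.97 CPM in WT and at 25.5, 5.64, 13.2 and 21.0 CPM in ORP4L KI (2.44 ± 0.54), with the libraries in the order of Cebpe. Klf5, a Krüppel-like factor gene, was low throughout, at 0.559, 0.88 and 0.843 CPM in WT and 4.50, 2.79, 4.25 and 7.03 CPM in ORP4L KI (2.60 ± 0.42). Their adjusted p in edgeR's quasi-likelihood test with Benjamini-Hochberg adjustment was 0.0708 for Irf8, 0.0838 for Erg and 0.0601 for Klf5. The genes of the list with the highest mean CPM, which does not take length into account, were Mxd1 (0.52 ± 0.38) and Egr1 (0.22 ± 0.24), and neither was called. The genes that edgeR did not call ranged from -0.50 (Zeb2) to 1.59 (Nfe2). DESeq2's Wald test called 4 of the 24, Nfe2 in addition, and edgeR called Nfe2 without the filter and without ORP4L KI replicate 2.

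Spi1 was compared with 14 other ETS family genes of blood cells, of which Erg was called higher and Spib and Spic lower, with a median log2 fold change of -0.01. Spib, the closest relative of Spi1 with a role in B-cells and plasmacytoid dendritic cells, was at 69.6, 60.0 and 40.7 CPM in WT and at 28.5, 17.7, 27.9 and 16.5 CPM in ORP4L KI (-1.32 ± 0.27). Spic, a factor of red pulp macrophages, was at 5.84, 10.3 and 4.85 CPM in WT and at 2.68, 2.25, 3.16 and 4.23 CPM in ORP4L KI (-1.19 ± 0.35). Both related genes were thus lower in every ORP4L KI library than in any WT library, where Spi1 overlapped. Of all genes tested, 7.38% were lower in this way. The call of Spic was lost without WT replicate 1 (-1.30) or 2 (-0.80) and without ORP4L KI replicate 1 (-1.13), 2 (-1.07) or 3 (-1.20). Ets1 (-0.14 ± 0.37) and Ets2 (0.58 ± 0.36), with the highest mean CPM of the list, were not called, and the sign of Ets1 turned without WT replicate 3 (0.21) or ORP4L KI replicate 1 (0.06).

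Of 11 myeloid cytokine receptor genes, whose ligands direct the growth of myeloid precursors, none was called higher and Csf1r, Kit and Flt3 were called lower, with a median log2 fold change of -0.78. Csf1r, the receptor gene of macrophage colony-stimulating factor, was at 228, 345 and 226 CPM in WT and at 138, 98.3, 117 and 120 CPM in ORP4L KI (-1.17 ± 0.22). Kit, the stem cell factor receptor gene, was at 66.3, 83.3 and 64.4 CPM in WT and at 36.8, 31.3, 38.0 and 29.5 CPM in ORP4L KI (-1.07 ± 0.19). Flt3, the FLT3 ligand receptor gene, was at 86.6, 138 and 90.2 CPM in WT and at 29.7, 33.8, 58.2 and 32.7 CPM in ORP4L KI (-1.44 ± 0.28). All 3 genes were lower in each ORP4L KI library than in any WT library, as were 7.38% of all genes tested. Csf3r, the receptor gene of granulocyte colony-stimulating factor, overlapped between the groups, at 358, 1031 and 713 CPM in WT and 427, 196, 426 and 361 CPM in ORP4L KI (-0.99 ± 0.38). It was called lower without WT replicate 1 (-1.31), while Csf1r (-0.94) and Kit (-0.95) were not called without WT replicate 2.

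Of 14 bZIP partners and controllers of C/EBP proteins, edgeR's quasi-likelihood test called none, 2 had an unadjusted p under 0.05, and DESeq2's Wald test called 2, Hlf (higher) and Batf3 (lower). Atf4, a stress-response factor that pairs with C/EBP gamma, had a log2 fold change of 0.50 ± 0.26 and Atf3, a repressor of the same family, one of -0.54 ± 0.29. The list had a median of 0.35 and ranged from -1.12 (Batf3) to 1.01 (Hlf). Without WT replicate 3 Hlf and Batf3 were called, and without ORP4L KI replicate 1 Hlf was. Of 16 T-lineage transcription factors none was called, 1 had an unadjusted p under 0.05, and DESeq2's Wald test called Eomes alone. Their median was -0.04, with values from -0.73 (Lef1) to 1.59 (Eomes), and those with the highest mean CPM were Klf2 (0.36 ± 0.32) and Ets1. Eomes was called higher without ORP4L KI replicate 1.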

How the data were processed

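T-cell RNA of 4 ORP4L KI and 3 WT mice was sequenced, and groups follow the genotype in the labels. The authors mapped adapter-trimmed reads to mouse mRNA reference sequences with FANSe3 (build mm10 in the submitters' processing notes), merged splice variants and deposited read counts per gene without normalization. The authors also deposited RPKM from the longest transcript, used here only to compare levels between genes. Library totals ranged from 12918187 to 19665679 counts.

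Counts of all genes were fitted with edgeR 4.0.16 in R 4.3.3, with filterByExpr (10 counts in enough libraries, 15 in all), TMM scaling and the quasi-likelihood test without covariates. SE is the size of the log2 fold change divided by the square root of F. A call needs a log2 fold change beyond 1 in either direction with an unadjusted p under 0.01, and a second call rule a Benjamini-Hochberg adjusted p under 0.05. P-values set the difference between the groups against a variance estimated between these mice, for which edgeR pools information over genes. The 7 genes and the lists were chosen with earlier results of these data known, so counts over lists are no independent support. Beside the 7 genes, the called genes of each list were named (the 6 highest in mean CPM where more were called), the 2 of each list highest in mean CPM, and the 5 genes nearest to Cebpe and to Spi1. Of the C/EBP coding sequences, 1 is not reported here. Prss57 of the primary granule list and Mmp9 of the secondary were called but fall outside this rule. They, marker genes, Xist, Osbp2, Zeb2, Nfe2, Lef1, Lrg1, Hp, Hlf, Batf3 and Eomes were named after their values were seen.

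Alternatives were DESeq2 size factors, total counts, no filter, DESeq2 1.42.0's Wald test, a replicate block, and each replicate left out. The fit was tested on simulated data. Tables and plots were made with Python 3.11.15, pandas 2.3.3 and Matplotlib 3.10.9.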

Additional observations from a re-analysis of the deposited data

Results flagged for a closer look

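In 3 genes 1 ORP4L KI library lay far from the other 3 by Dixon's test. Ms4a3 was at 355 CPM in ORP4L KI replicate 1 and at 25.9 to 71.8 CPM in the others. Prtn3, the gene nearest to Cebpe in pattern, was at 1399 CPM in ORP4L KI replicate 1 and at 119 to 294 CPM in the others. Flt3 was at 58.2 CPM in ORP4L KI replicate 3 and at 29.7 to 33.8 CPM in the others, all below the WT libraries. For normally distributed values, chance gives about 1 such case in 20, which is 1.75 among the 35 genes examined. The CPM were tested without a log transformation, so this rate may not hold for them.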

How the results depend on the processing

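The log2 fold changes of the 7 genes kept their sign under all other scalings, filters and tests, and under the removal of each replicate except for Spi1 (-0.41 to 0.34). That of Cebpe was 3.39 to 5.29 with a replicate removed. With total counts the median over all genes moved from 0.01 to -0.13, calls split into 275 higher and 407 lower in place of 320 and 310, and Cebpe was at 4.18 and Spi1 at -0.28. The share of Cebpe in the summed C/EBP level was 0.556% in WT and 6.83% in ORP4L KI with CPM in place of RPKM. The number of genes called (630) ranged from 328 (without WT replicate 2) to 805 (without ORP4L KI replicate 2) with a replicate removed. The 3 genes at an adjusted p under 0.05 became 113 with total counts, 176 without the filter, 784 with DESeq2's Wald test and 0 to 342 with a replicate removed; the fits with 0 (edgeR, each WT replicate or ORP4L KI replicate 4 removed) left 1260 to 1759 genes with an unadjusted p under 0.05. Among bZIP partners 1 gene was called with total counts, 2 with the Wald test and 0 to 2 with a replicate removed. Among T-lineage factors it was 1 with DESeq2 size factors, 1 without the filter, 1 with the Wald test and 0 to 1 with a replicate removed, and among receptors 1 to 4. Ets1 turned to 0.21 without WT replicate 3 and to 0.06 without ORP4L KI replicate 1, in a range of -0.42 to 0.21. Of 336 refits of the 28 named list genes, 317 kept direction and side of the thresholds. Same-numbered mice did not deviate together (r = 0.15, -0.535 and -0.002), so the numbers were not taken to pair them. A replicate block over replicates 1 to 3 called 466 genes, 48 at an adjusted p under 0.05 in edgeR's quasi-likelihood test, with Cebpe at 4.19. Of the called list genes named above, Chil3, Spic and Mmp9 lost their calls in it. The causes of these changes were not tested.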
